A study of Mus musculus with 6 samples.

Results

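H19, Igf2, Dlk1 and Meg3 are 4 imprinted mouse genes that form 2 neighbouring pairs, H19 beside Igf2 on chromosome 7 and Dlk1 beside Meg3 on chromosome 12. They were chosen by name and read as fixed mm9 intervals, which makes 4 gene intervals in a genome of 250807 windows of 10 kb with reads. In all 6 libraries the intervals held sparse reads of ubiquitylated histone H2B (H2Bub), and neither list of H2Bub peaks had a peak in any of them. Of the 250807 windows, 208685 likewise held no peak of either list.

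Chromatin came from C2C12, a line of mouse myoblasts that form myotubes in low serum (the source names spell it C1C12). The groups were myotubes (MT), harvested 96 h after confluent cells were moved to 2% horse serum with a medium change on day 2, and growing myoblasts (MB), harvested in 10% fetal bovine serum at about 40% confluency. Each group had 3 libraries, all from chromatin cut with micrococcal nuclease (MNase) and precipitated with antibody clone 56, and the labels give the libraries consecutive antibody lot numbers, which may or may not record different lots. Whether replicate libraries stem from separate cultures is not in the labels; each p-value therefore covers the spread of these libraries alone, and that spread may be technical. The MT libraries held 8759266, 9242611 and 14467774 reads on chromosomes 1 to 19 and X, and the MB libraries 9285330, 10491948 and 15891204. With H2Bub reads alone and no mm9 annotation, the cell type of the samples was not checked against markers, and no RNA level of the 4 genes was analysed here.

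H2Bub is placed by the Rnf20/Rnf40 ubiquitin ligase behind elongating RNA polymerase II, so it usually lies over the bodies of transcribed genes. Imprinted genes are transcribed mainly from the copy inherited from 1 parent. At the chromosome 7 pair, the maternal copy makes H19, a long noncoding RNA that is also the precursor of miR-675, and the paternal copy makes Igf2, a growth factor that myoblasts secrete and respond to as they differentiate. At the chromosome 12 pair, the paternal copy makes Dlk1, a transmembrane protein with epidermal growth factor repeats, and the maternal copy makes Meg3, a long noncoding RNA. A read count does not tell the parental copies apart.

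The H19 interval is chr7:149761001-149764500 (3.5 kb) and the Igf2 interval chr7:149836501-149853000 (16.5 kb), both on the minus strand. The Dlk1 interval is chr12:110690501-110702000 (11.5 kb) and the Meg3 interval chr12:110779001-110810000 (31 kb), both on the plus strand. No mm9 annotation was at hand, so the intervals were compared with gene lengths and spacing in RefSeq on another assembly, GRCm38.p6. There the H19 gene spans 2617 bp, Igf2 16049 bp, Dlk1 10852 bp and Meg3 30734 bp, each shorter than its interval. The left edges of H19 and Igf2 are 75238 bp apart in RefSeq and 75500 bp apart in the intervals, and those of Dlk1 and Meg3 88511 bp and 88500 bp. In RefSeq order the H19 pair lies between Mrpl23 and Nctc1 on the one side and Ins2 on the other, and Rtl1 overlaps Meg3 and follows Mir770. Igf2os and Mir483 overlap Igf2, and the read positions do not tell overlapping genes apart.

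Small RNAs are encoded inside 3 of the 4 intervals: the RefSeq table matched 7 mature microRNAs, 2 in H19, 2 in Igf2 and 3 in Meg3, all on the strand of their host. They are shown because the H19, Igf2 and Meg3 intervals contain their precursors; reads over the precursors themselves were not counted. Capitals mark the seed, bases 2 to 8, which pairs with target transcripts, and the 7 seeds are all different.
mmu-miR-675-5p: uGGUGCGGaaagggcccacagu
mmu-miR-675-3p: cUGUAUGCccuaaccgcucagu
mmu-miR-483-5p: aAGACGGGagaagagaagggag
mmu-miR-483-3p: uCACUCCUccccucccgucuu
mmu-miR-770-5p: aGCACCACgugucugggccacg
mmu-miR-770-3p: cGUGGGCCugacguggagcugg
mmu-miR-1906: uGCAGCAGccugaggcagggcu

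The mark was thin over all 4 genes. H19 held 8, 5 and 23 reads in MT libraries 1, 2 and 3, against 1, 4 and 24 in MB libraries 1, 2 and 3. Igf2 held 37, 29 and 69 reads in MT and 9, 20 and 56 in MB. Dlk1 held 30, 33 and 70 reads in MT and 12, 18 and 46 in MB. With the 6 libraries together, reads still lay along the whole of each gene. The longest stretch with no read start was 302 bp in H19, 566 bp in Igf2, 448 bp in Dlk1 and 638 bp in Meg3. Meg3 held 98, 123 and 206 reads in MT and 44, 57 and 103 in MB, the most of the 4 as its interval is the longest.

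Values from here are densities, in reads per kb per 1000000 library reads on chromosomes 1 to 19 and X. H19 had densities of 0.261, 0.155 and 0.454 in the MT libraries, against 0.0308, 0.109 and 0.432 in the MB libraries. The H19 groups overlapped, because MB library 3 stood above MT libraries 1 and 2. Igf2 had densities of 0.256, 0.190 and 0.289 in MT, against 0.0587, 0.116 and 0.214 in MB. MB library 3 again reached into the MT range of Igf2, and the other 2 MB libraries lay below all MT libraries.

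Dlk1 had densities of 0.298, 0.310 and 0.421 in MT, against 0.112, 0.149 and 0.252 in MB. Meg3 had densities of 0.361, 0.429 and 0.459 in MT, against 0.153, 0.175 and 0.209 in MB. All 3 MT libraries lay above all 3 MB libraries for both genes of the chromosome 12 pair. MB library 3 was the highest of the MB libraries in all 4 intervals and in all 8 flanks of 20 kb beside them, 12 of 12. At H19 it was 14.0 times MB library 1, a ratio of 24 reads to 1 before scaling. MT library 3 was also the highest of the MT libraries in all 4 intervals, though not in every flank.

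As means ± SD (n = 3 libraries each), H19 stood at 0.290 ± 0.152 in MT and 0.190 ± 0.212 in MB, and Igf2 at 0.245 ± 0.0503 in MT and 0.129 ± 0.0783 in MB. Dlk1 stood at 0.343 ± 0.0676 in MT and 0.171 ± 0.0722 in MB, and Meg3 at 0.417 ± 0.0504 in MT and 0.179 ± 0.0283 in MB. The exact two-sided permutation test over libraries gave p = 0.5 for H19, p = 0.2 for Igf2, and p = 0.1 for Dlk1 and for Meg3, and 0.1 is the smallest p that 3 against 3 libraries allow. The groups did not overlap in 2 of the 4 intervals, where 67.5% of all windows tested had every MT library above every MB library and 13.3% every MT library below. The members' share of 2 in 4 was thus no higher than the share of the genome.

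In order of MT mean density, Meg3 came first, then Dlk1, H19 and Igf2. In MB the order was H19, Meg3, Dlk1 and Igf2. Neighbours in either order differed by less than the sum of their SDs, and the place of H19 rested on library 3 of each group. Summed over libraries, Igf2 held 135 reads in MT and 85 in MB, a pooled density of 0.252 (exact Poisson 95% interval 0.211 to 0.298) in MT and 0.144 (0.115 to 0.179) in MB. These intervals cover counting error only.

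**Figure D1:**
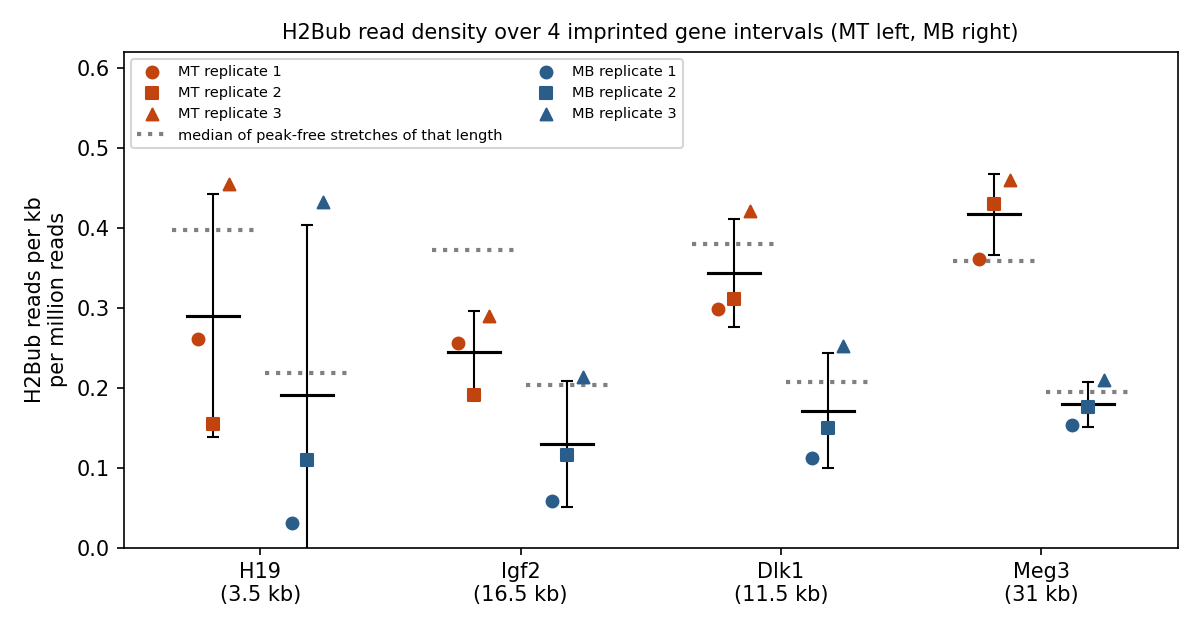
H2Bub density (y axis, reads per kb per 1000000 reads) of each library over the 4 intervals (x axis), MT at the left and MB at the right of each pair; horizontal bars are means, error bars 1 SD of 3 libraries (the lower end for H19 in MB falls below 0 and is not drawn), and dotted lines the median of peak-free stretches of the same length. Dlk1 and Meg3 are the intervals where the groups do not overlap, and Meg3 in MT is the 1 group whose mean lies above its dotted line.

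All 4 intervals were below the density of MB peaks in both groups, by more in MB than in MT. These peaks are the list of the MB group, so that contrast between the groups is partly set by the choice of list. Over the MB peaks, density averaged 0.813 ± 0.150 in MT and 3.32 ± 0.346 in MB (SD, n = 3 each). Outside all peaks of both lists it averaged 0.379 ± 0.00659 in MT and 0.272 ± 0.0149 in MB. As a share of the density in MB peaks in the same group, Igf2 had 30.1% in MT and 3.89% in MB, H19 35.6% in MT and 5.73% in MB, Dlk1 42.2% in MT and 5.15% in MB, and Meg3 51.2% in MT and 5.39% in MB.

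Igf2 had the lowest mean relative to the sequence outside peaks in both groups, although H19 was lower than Igf2 in MT library 2 and in MB libraries 1 and 2. The Igf2 interval's 135 reads in MT and 85 in MB compare with 203 in MT and 161 in MB that an interval of its length would hold at the density outside all peaks. Meg3 held 427 reads in MT, against 381 at that density, and 204 in MB, against 303. Dlk1 held 133 reads in MT against 141, and 76 in MB against 113, and H19 held 36 in MT against 43.0, and 29 in MB against 34.2. Chromosome 7 as a whole was lower outside peaks, at 0.287 ± 0.00466 in MT and 0.219 ± 0.0178 in MB. Relative to the sequence outside peaks of chromosome 7 alone, H19 had 1.01 ± 0.512 times its density in MT and 0.825 ± 0.867 in MB, and Igf2 0.854 ± 0.167 in MT and 0.576 ± 0.307 in MB.

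Placed among all peak-free stretches of the same length, Igf2 had a higher mean density than 21.0% of 121284 stretches in MT and 19.4% in MB. Dlk1 exceeded 40.4% of 179677 stretches in MT and 33.5% in MB. Meg3 exceeded 67.1% of 59592 stretches in MT and 41.5% in MB, and its MB libraries 1, 2 and 3 singly exceeded 22.6%, 53.5% and 51.6%, so its place below the middle in MB rests on MB library 1. H19 exceeded 26.7% of 614716 stretches in MT and 38.5% in MB, and singly MB libraries 1, 2 and 3 exceeded 4.22%, 20.8% and 88.0%. Stretches of a given length lie end to end without overlap, and the places are a description with no test.

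**Figure D2:**
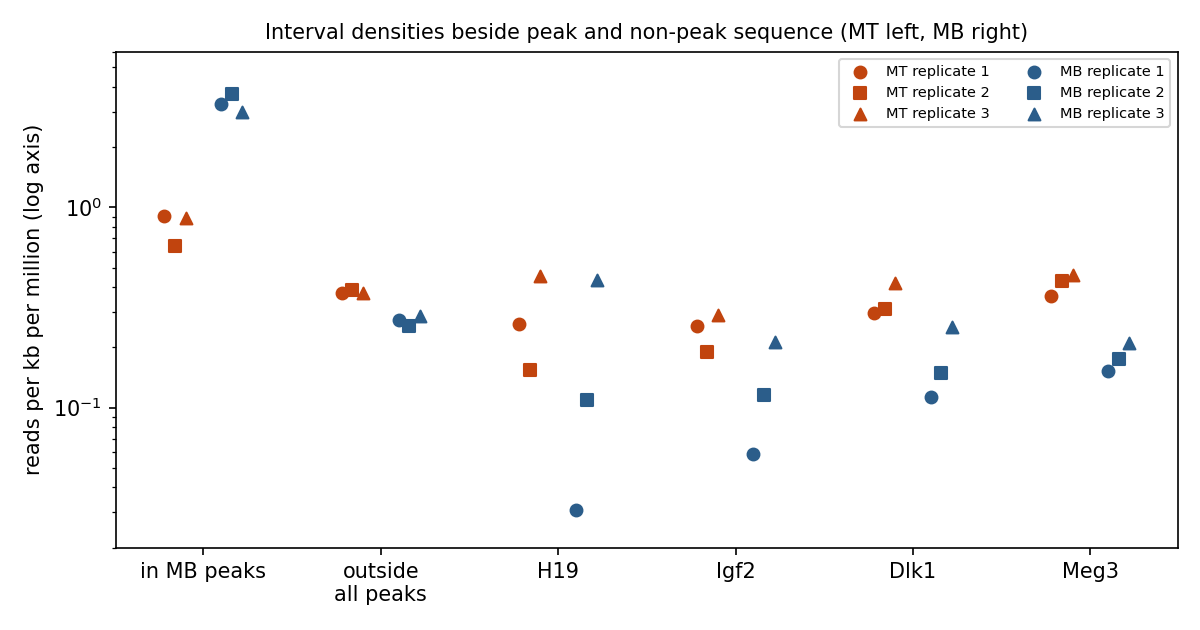
Density per library (y axis, reads per kb per 1000000 reads, log axis) over MB peaks, over the sequence outside all peaks and over the 4 intervals (x axis), MT left and MB right. MB libraries fall from 3.32 on average in MB peaks to below 0.5 in all 4 intervals, and the intervals spread around or below the sequence outside peaks.

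Both peak lists were empty across the 4 genes, as they were in 208685 of the 250807 windows of 10 kb with reads. No MT peak and no MB peak overlapped H19, Igf2, Dlk1 or Meg3, or their flanks of 20 kb, so no peak region within them was tested. The lists hold 2.21 MT and 58.6 MB peaks per Mb on chromosome 7, and 7.51 MT and 65.4 MB peaks per Mb on chromosome 12. The MB peak nearest to H19, chr7:149668242-149668477, lay 92.5 kb beyond its 3′ end, on the side away from Igf2, with densities of 0.293 ± 0.507 in MT and 2.01 ± 0.593 in MB.

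Around the chromosome 12 pair, MB peaks were further off than MT peaks. The nearest MB peak, chr12:110246918-110247157, lay 443 kb before Dlk1, with 0.781 ± 0.728 in MT and 1.64 ± 0.911 in MB. The nearest MT peak, chr12:110872317-110872527, lay 62.3 kb beyond the 3′ end of Meg3 and had densities of 3.25, 1.03 and 1.97 in MT, against 0, 0.452 and 0.895 in MB. The nearest MT peak to H19, chr7:149676464-149676857, lay 84.1 kb beyond its 3′ end, with 0.974 ± 0.221 in MT and 0.251 ± 0.240 in MB. Each of these peaks was called on the same libraries, so its values are a description.

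The comparison that the design implies is MT against MB, fitted with limma (voom) over all windows, the 4 intervals and their flanks, with libraries scaled by total reads. Meg3 was higher in MT by a log2 fold change of 1.20 (SE 0.21, 95% interval 0.78 to 1.62, limma adjusted p = 1.25e-05). Dlk1 was higher by 1.00 (SE 0.26, 0.47 to 1.53, limma adjusted p = 0.00115), and Igf2 by 0.97 (SE 0.29, 0.39 to 1.54, limma adjusted p = 0.00299). H19 did not pass the threshold of 0.05, at 0.94 (SE 0.51, -0.09 to 1.98, limma adjusted p = 0.0841).

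So 3 of 4 intervals were called higher in MT and 0 lower; of all windows tested, 70.9% were called higher and 13.1% lower, and of those without a peak 82.8% and 0.953%. The median window had a log2 fold change of 0.78, the median peak-free window 0.84, and the 25th and 75th percentiles of peak-free windows were 0.64 and 1.02. H19, Igf2 and Dlk1 lay inside that range. Meg3 lay above it but below the 95th percentile of peak-free windows, 1.28. The share of the members called was thus that of peak-free sequence at large. The pooled ratio of MT to MB density was 1.36 for H19, 1.74 for Igf2, 1.92 for Dlk1 and 2.30 for Meg3. For peak-free stretches of these lengths, the median density in MT was 1.81 to 1.84 times the median density in MB. Those medians use means over libraries and not pooled reads, so the 2 kinds of ratio are not measured alike.

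H19 changed call with single libraries. Without MB library 3 its log2 fold change was 1.98 (limma adjusted p = 0.00284), and without MT library 2 it was 1.23 (limma adjusted p = 0.0284); over the 6 fits with 1 library left out it ran between 0.22 and 1.98. Those fits gave 0.58 to 1.51 for Igf2, 0.78 to 1.39 for Dlk1 and 1.10 to 1.31 for Meg3, each call kept in all 6.

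With scaling factors taken from all 10 kb windows, the majority of them peak-free (background scaling), no interval passed. Meg3 stood at 0.50 (SE 0.24, 95% interval 0.02 to 0.99, limma adjusted p = 0.151), Dlk1 at 0.26 (limma adjusted p = 0.542), Igf2 at 0.22 (limma adjusted p = 0.654) and H19 at 0.21 (limma adjusted p = 0.838). Without adjustment, limma's p across all features was below 0.05 for 1 of the 4 intervals, Meg3. At that unadjusted limma p, 8.27% of all windows tested were higher in MT and 20.5% lower. The scaling moved the median window to 0.08, and 2.15% of windows were then called higher and 18.8% lower (2.42% and 5.24% of those without a peak). Relative to that median, the 4 genes keep the order they had with total reads. Meg3 again lay below the 95th percentile of peak-free windows, then 0.59.

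**Figure D3:**
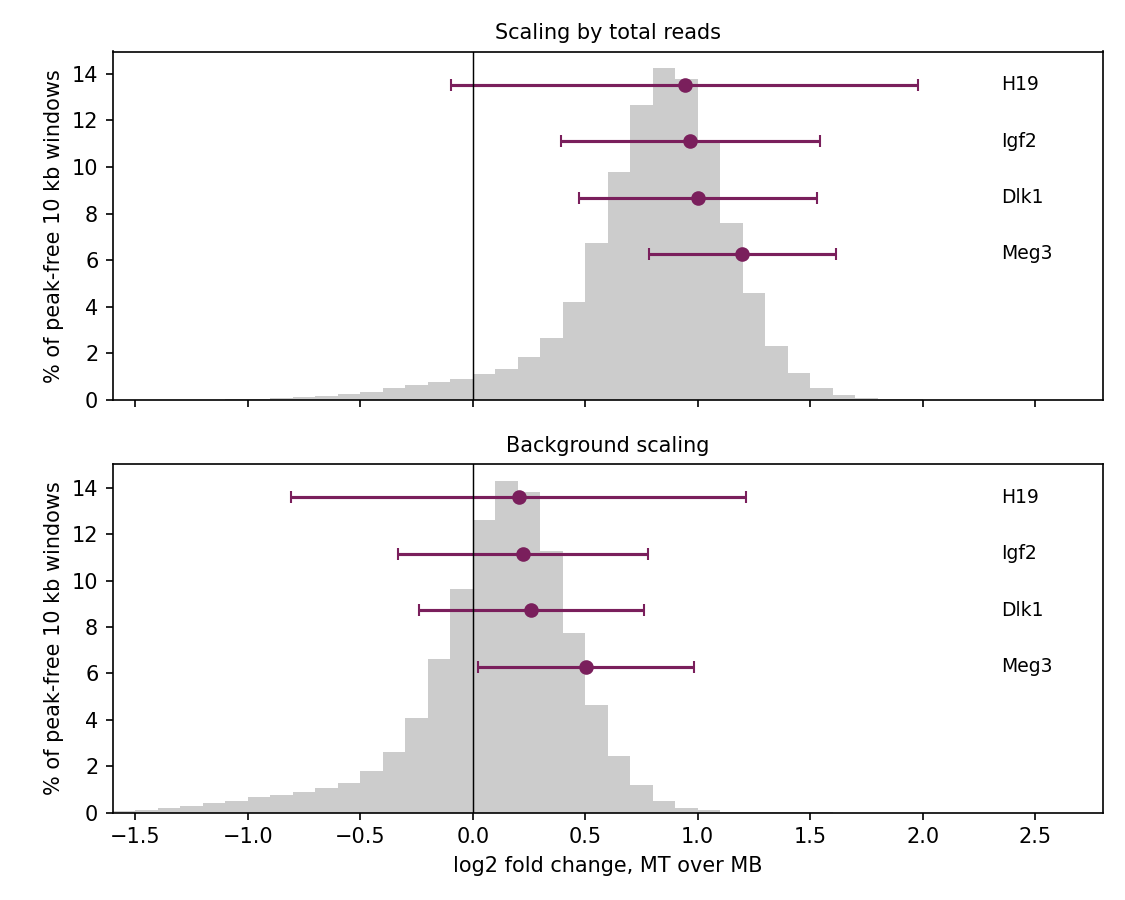
Log2 fold changes, MT over MB (x axis), of the 4 intervals (points, with 95% intervals from limma) over the distribution of all peak-free 10 kb windows tested (grey bars, y axis in percent of windows), with total-read scaling above and background scaling below. In both panels H19, Igf2 and Dlk1 sit near the peak of the grey distribution and Meg3 at its right side.

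Meg3 also had the largest of the 4 differences between MT and MB relative to the sequence outside all peaks. Its density was 0.963, 1.11 and 1.22 times that sequence in the MT libraries, against 0.558, 0.683 and 0.731 times in the MB libraries (exact two-sided permutation p = 0.1, the smallest possible). The groups did not overlap, as for 31.4% of all windows in that direction and 17.8% in the other. Dlk1 had 0.906 ± 0.186 times in MT and 0.624 ± 0.238 in MB (exact permutation p = 0.3), Igf2 0.648 ± 0.142 in MT and 0.470 ± 0.267 in MB (exact permutation p = 0.4), and H19 0.768 ± 0.410 in MT and 0.682 ± 0.732 in MB (exact permutation p = 1). For those 3 genes the groups overlapped. The size of these differences depends on the background used. The sequence outside all peaks, which includes sequence beside peaks, averaged 0.379 in MT and 0.272 in MB. Peak-free stretches of the length of Meg3 had median densities of 0.359 in MT and 0.195 in MB, lower mainly in MB.

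Set against their own surroundings, the MT and MB libraries overlapped for all 4 genes. The flanks of 20 kb had mean densities of 0.371 to 0.483 in MT and 0.169 to 0.249 in MB. All MT libraries lay above all MB libraries in 8 of 8 flanks, as in 67.5% of all windows tested. These flanks include, as background, the differentially methylated control region just before H19 and the one between Dlk1 and Meg3, which set the imprint of each pair. All 8 were called higher with total reads (log2 fold change 0.75 to 1.29), as were 82.8% of peak-free windows and 70.9% of all windows. With background scaling, 2.42% of peak-free windows and 2.15% of all were called higher. Of the flanks 1 then was, that before Igf2 (0.62, limma adjusted p = 0.0491). That call was made in 2 of 6 fits with 1 library left out (log2 fold change 0.42 to 0.88, limma adjusted p up to 0.294) and not with median-of-ratios scaling (limma adjusted p = 0.0546).

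Meg3 over its 2 flanks had a density ratio of 0.843, 0.923 and 0.933 in the MT libraries, against 0.660, 0.886 and 0.707 in the MB libraries (exact two-sided permutation p = 0.2). Igf2 had 0.641, 0.549 and 0.597 in MT, against 0.312, 0.970 and 0.893 in MB (exact permutation p = 0.5), so its density was below that of its flanks in all 6 libraries, by similar amounts in MT and by scattered amounts in MB. Dlk1 had 0.802 ± 0.128 in MT and 0.807 ± 0.0891 in MB (exact permutation p = 1), and H19 0.674 ± 0.284 in MT and 0.826 ± 0.698 in MB (exact permutation p = 0.9). The groups overlapped in 4 of 4 genes, where 13.9% of windows had every MT library above every MB library by the same kind of ratio and 9.25% below. This ratio does not depend on the scaling of libraries.

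The neighbours within a pair were also compared with each other in each library. The log2 ratio of H19 over Igf2 was 0.19 ± 0.44 in MT and 0.22 ± 0.74 in MB (exact two-sided permutation p = 1). That of Meg3 over Dlk1 was 0.28 ± 0.17 in MT and 0.11 ± 0.35 in MB (exact permutation p = 0.6). The groups overlapped for both ratios, and 3 against 3 libraries could not have passed 0.05 in this exact permutation test.

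Along the chromosome 7 stretch, the MT mean lay above the MB mean in 66 of 66 bins of 2 kb, and along the chromosome 12 stretch in 79 of 80. The highest bins were outside the genes, 0.759 in MT and 0.315 in MB on chromosome 7, and 0.732 in MT and 0.542 in MB on chromosome 12. Within the genes, the MT mean was higher in 3 of 3 bins of 1 kb in H19, 15 of 16 in Igf2, 11 of 11 in Dlk1 and 29 of 31 in Meg3. The share of such bins over the genome was not counted. With the same scaling, 82.8% of peak-free 10 kb windows were called higher in MT. That is a share of limma calls in longer windows, so whether the bin counts set these stretches apart was not tested. Most bins rest on a few reads, and neighbouring bins share their libraries.

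**Figure D4:**
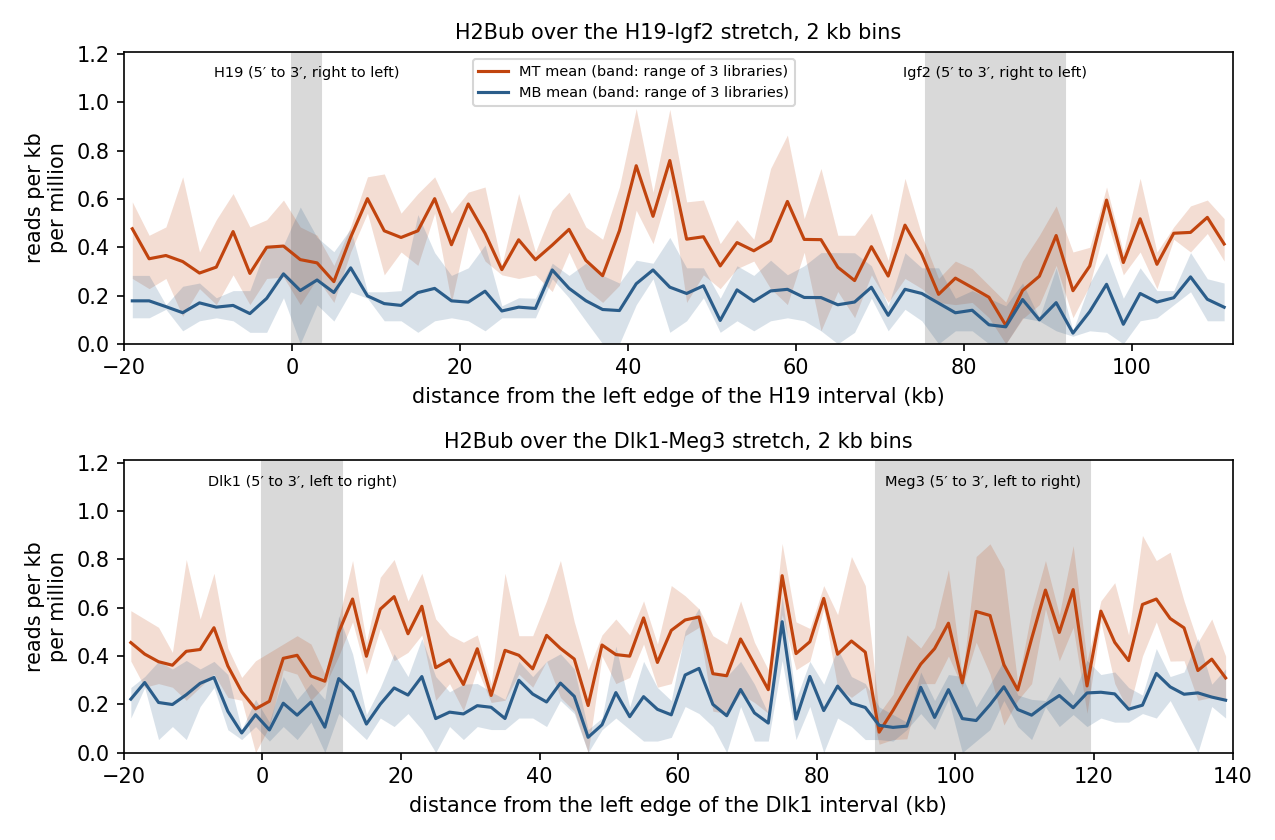
Mean density per 2 kb bin (y axis, reads per kb per 1000000 reads) along the H19-Igf2 stretch (top) and the Dlk1-Meg3 stretch (bottom), plotted by distance from the left edge of H19 or Dlk1 in kb; lines are means of 3 libraries, bands their range, and grey blocks the genes. The MT line runs above the MB line in 66 of 66 and 79 of 80 bins, inside and outside the genes, with low points within Igf2 and at the start of Meg3.

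The bins with the highest MB mean in each gene were as follows. In Meg3 it was chr12:110806001-110807000, 27 kb from the gene start, with 29 reads in MT and 15 in MB. Its densities were 1.26, 1.08 and 0.553 in the MT libraries, against 0.431, 0.381 and 0.440 in the MB libraries, and this was also the highest MT bin of all 4 genes, with a mean of 0.964. In Igf2 it was chr7:149842501-149843500, with means of 0.325 in MT and 0.299 in MB. In Dlk1 it was chr12:110697501-110698500, with 0.281 in MT and 0.277 in MB, and in H19 chr7:149762001-149763000, with 0.386 in MT and 0.242 in MB. The second bin was chr12:110796001-110797000 in Meg3 (0.427 in MT and 0.287 in MB), chr7:149847501-149848500 in Igf2 (0.330 in MT and 0.198 in MB), chr12:110695501-110696500 in Dlk1 (0.448 in MT and 0.215 in MB) and chr7:149763001-149764000 in H19 (0.248 in MT and 0.204 in MB).

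Reads were not gathered at the starts of Meg3 or Dlk1. The third of Meg3 nearest its start held 23.2% of its reads in MT (99 of 427) and 29.9% in MB (61 of 204), where an even spread gives 33.3%. That of Dlk1 held 30.8% in MT (41 of 133) and 26.3% in MB (20 of 76), and that of Igf2 45.9% in MT (62 of 135) and 37.6% in MB (32 of 85). H19 had 7 reads there in each group, 19.4% of 36 in MT and 24.1% of 29 in MB. By library its share was 0%, 0% and 30.4% in MT, against 100%, 50% and 16.7% in MB, on few reads outside library 3 of each group. Over libraries the exact two-sided permutation test gave p = 0.2 for Meg3, 0.5 for Dlk1, 1 for Igf2 and 0.2 for H19, and the groups overlapped in all 4.

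The first 3 bins of Meg3, picked after their values were seen, had 4, 7 and 3 reads in MT and 2, 7 and 3 in MB. Their mean densities were 0.133, 0.202 and 0.0841 in MT and 0.0569, 0.173 and 0.0779 in MB. The runs that follow are the bases just before 1 of the 2 Meg3 starts in RefSeq and, for comparison, the same stretch of Dlk1 and the most CG-rich of 4 Igf2 starts, on GRCm38.p6. Capitals mark each CG, the letter pair that is methylated at imprinted control regions.
Meg3 promoter 1: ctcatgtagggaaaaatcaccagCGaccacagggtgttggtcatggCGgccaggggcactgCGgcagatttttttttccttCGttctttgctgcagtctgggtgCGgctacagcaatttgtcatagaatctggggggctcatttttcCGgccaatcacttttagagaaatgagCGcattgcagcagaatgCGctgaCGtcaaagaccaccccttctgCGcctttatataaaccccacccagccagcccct
Dlk1 promoter 1: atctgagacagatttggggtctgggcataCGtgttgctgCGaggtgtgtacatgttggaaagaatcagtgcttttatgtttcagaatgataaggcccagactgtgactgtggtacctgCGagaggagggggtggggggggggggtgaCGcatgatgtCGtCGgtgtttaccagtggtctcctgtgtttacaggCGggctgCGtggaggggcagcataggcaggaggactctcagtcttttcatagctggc
Igf2 promoter 3: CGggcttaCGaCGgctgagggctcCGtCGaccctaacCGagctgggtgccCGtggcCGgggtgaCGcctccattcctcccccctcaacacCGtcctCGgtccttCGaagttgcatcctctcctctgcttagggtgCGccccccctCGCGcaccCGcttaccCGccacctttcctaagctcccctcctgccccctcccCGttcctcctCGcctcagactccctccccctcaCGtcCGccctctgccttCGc

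Each run is 250 bases. The Meg3 run holds 10 CG and 52.4% G or C, the Dlk1 run 8 CG and 54.8%, and the Igf2 run 22 CG and 68.8%. Among 32851 RefSeq promoters of that length the median was 6 CG and 52.4% G or C, and 92.1% held at least 1 CG. The letters TATAAA, searched on both strands, occur in this Meg3 run, in none of the 5 runs of Dlk1 and Igf2, and in 12.4% of all promoters. RefSeq lists another Meg3 start, whose 250 bases hold 0 CG and no TATAAA. A match is a description of the letters in the window.

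Of the 10 kb windows across both stretches, 30 were tested, 14 on chromosome 7 and 16 on chromosome 12. No listed peak lay in either stretch. With total reads all 30 were called higher in MT (median log2 fold change 1.07), against 82.8% of peak-free windows and 70.9% of all windows. With background scaling 1 of 30 was called higher and 0 lower, against 2.42% and 5.24% of peak-free windows and 2.15% and 18.8% of all. At an unadjusted limma p under 0.05, 9 of 30 were higher and 0 lower, against 8.27% and 20.5% of all windows. Whether the stretches differ from other windows in these shares was not tested. That 1 was chr12:110800001-110810000, the last 10 kb of Meg3, with log2 fold changes of 1.48 with total reads (limma adjusted p = 4.65e-06) and 0.79 with background scaling (SE 0.24, limma adjusted p = 0.00957).

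That window held 0.548, 0.498 and 0.532 in the MT libraries, against 0.129, 0.219 and 0.208 in the MB libraries. The MT libraries were close to each other and all at more than 2 times any MB library. With background scaling and 1 library left out, it was called in 5 of 6 fits, the exception being without MB library 1, where limma's adjusted p was 0.0710 and the log2 fold change 0.59. The other 3 windows that touch Meg3 were not called with background scaling.

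The smallest log2 fold change of the chromosome 7 stretch was that of the H19 window, chr7:149760001-149770000, at 0.54 with total reads. It held 0.365, 0.335 and 0.422 in MT, against 0.162, 0.276 and 0.334 in MB, and with background scaling it stood at -0.17 (limma adjusted p = 0.697). Next came chr7:149840001-149850000 in the middle of Igf2, at 0.76, with 0.209 ± 0.0497 in MT and 0.125 ± 0.0775 in MB. The largest were chr7:149850001-149860000, which holds the start of Igf2, at 1.44, and chr7:149780001-149790000, between the genes, at 1.42.

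The third window that touches Igf2, over its 3′ end, stood at 0.92, and the differences among the Igf2 windows were not tested. The Igf2 start window held 0.354, 0.314 and 0.442 in MT, against 0.118, 0.0762 and 0.220 in MB. With background scaling it stood at 0.69 (limma adjusted p = 0.0756), and it was called in 2 of 6 fits with 1 library left out (0.45 to 1.16, limma adjusted p up to 0.389). The highest of these was without MB library 3 (limma adjusted p = 0.0117), in a fit that called 2.16% of all windows higher and 18.4% lower.

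On chromosome 12 the smallest were chr12:110670001-110680000, before Dlk1, at 0.73, and chr12:110820001-110830000, beyond Meg3, at 0.74. The second largest after the last window of Meg3 was chr12:110740001-110750000, between the genes, at 1.30, with 0.458 ± 0.0438 in MT and 0.193 ± 0.0862 in MB. Both windows that touch Dlk1 were called with total reads, at 1.06 and 1.27, and neither with background scaling, at 0.35 and 0.55. All 4 windows that touch Meg3 were called with total reads, at 0.83 to 1.48.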

How the data were processed

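The 6 libraries were grouped by their titles. Per the submitters' processing notes, the authors placed reads on mm9; they deposited mapped read positions with strand for each library, and 1 unscored peak list per group. Not given in the sources used here are the aligner, filters, peak caller, control and pooling. No position and strand repeats within a library, and whether positions count from 0 or 1 is not stated. Reads were counted here by position in the 4 intervals, their flanks and 10 kb windows, with pandas 2.3.3 and NumPy 2.4.6 in Python 3.11.15; SciPy 1.17.1 served the exact tests and matplotlib 3.10.9 the figures.

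Scaling was by reads on chromosomes 1 to 19 and X. It fixes the total of each library, so a change in the total amount of H2Bub cannot be seen. MB peaks held 34.0%, 38.1% and 31.0% of the reads of MB libraries 1, 2 and 3. They held 9.42%, 6.63% and 9.20% of those of MT libraries 1, 2 and 3. A larger share of MT reads thus fell outside these peaks. Groups were compared with limma 3.58.1 (voom, two-sided; R 4.3.3). Benjamini-Hochberg adjustment ran over 233817 windows plus the intervals and flanks, at a threshold of 0.05. Windows needed 10 reads at the median library size in 3 libraries and 15 reads in all; intervals and flanks were kept whatever their counts, and H19 alone would have failed that floor. Background scaling used trimmed mean of M-values factors over all 250807 windows with reads, before that floor. The fit was tested on simulated data. Neighbour ratios added 0.5 read to each count. For shifted positions, reads moved toward the nucleosome centre, by 75 bp on the plus and 29 bp on the minus strand. The members and lists were chosen with earlier results of these data known. Named windows were the 2 largest and 2 smallest log2 fold changes per stretch, and named bins the 2 highest MB means per gene. The lists of other imprinted genes and of the IGF pathway, marker genes and genes of similar pattern, which need an mm9 annotation, were not analysed here. Alternatives covered the scaling, the floor, limma-trend, a replicate block, each library left out, read positions, interval edges, flank length, a larger share of the gene as its 5′ part, and other peak overlap rules; background scaling combined with the block or with a library left out, and density relative to the sequence outside peaks, were added after the data were seen.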

Additional observations from a re-analysis of the deposited data

How the results depend on the processing

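With total reads, no floor, limma-trend, shifted positions, a replicate block and intervals widened by 1 kb or narrowed by 500 bp kept the calls of all 4 genes; the cause of the changes below was not tested. Background scaling gave 0.22 for Igf2, 0.26 for Dlk1 and 0.50 for Meg3 and 1 window; median-of-ratios scaling gave 0.20, 0.24 and 0.49 and 1 window. Same-numbered libraries had correlations of 0.00, -0.17 and 0.15 between their deviations. With 3 libraries per group, these values cannot tell whether libraries are paired by number. Library 3 had the most reads of its group and the highest density in all 4 intervals, in MT and in MB. A shared effect of the number there was not tested. The replicate block gave 0.62 for H19, 0.86 for Igf2, 0.96 for Dlk1 and 1.23 for Meg3, with 30 windows called. With background scaling it gave -0.11, 0.26, 0.30 and 0.52, with 6 windows. Leaving out 1 library gave log2 fold changes of 0.22 to 1.98 for H19, 0.58 to 1.51 for Igf2, 0.78 to 1.39 for Dlk1 and 1.10 to 1.31 for Meg3, and 26 to 30 windows. With background scaling as well, the ranges were -0.55 to 1.24, -0.18 to 0.76, 0.02 to 0.62 and 0.35 to 0.60, with no gene past the threshold and 0 to 9 windows, 9 without MB library 3; of the 8 flanks, 0 to 3 were called, and 2 with the block.

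Of the differences in flank ratio, that of Dlk1 turned to 0.0289 with 50 kb flanks and 0.0180 with shifted positions. Leave-one-out ranges were -0.0553 to 0.0672 for Dlk1, -0.460 to 0.227 for H19, -0.336 to -0.00664 for Igf2 and 0.103 to 0.216 for Meg3. For log2 neighbour ratios they were -0.35 to 0.38 (H19 over Igf2) and -0.0259 to 0.31 (Meg3 over Dlk1). For the Igf2 share near its start they were -3.31 to 8.40 percentage points, with -2.52 when the part near the start was widened, and for H19 relative to the sequence outside peaks -0.198 to 0.4998. Depth limits H19 most, with 36 reads in MT and 29 in MB.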
